A study of Mus musculus with 47 samples.

Results

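The splicing factors and RNA-binding proteins described here are 92 genes of the mouse hippocampus, taken from 35486 rows of a gene count table. They were chosen by symbol alone, as the Srsf, Hnrnp, Sf3a and Sf3b, Snrp, numbered Rbm and Rbfox genes with at least 470 counts summed over all 47 libraries. Of 96 symbols that matched, 4 fell below this minimum: Rbm44, Rbm8a2, Rbm46os and Rbm31y. The 92 genes were 11 Srsf, 20 Hnrnp, 9 Sf3, 12 Snrp, 37 Rbm and 3 Rbfox genes. All 92 passed the filter on low counts. The rule also took in Rbm3os, an RNA antisense to Rbm3 that is not known to encode an RNA-binding protein.

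The series measured RNA from the whole hippocampus of male C57BL/6J mice that had been given recombinant mouse platelet factor 4 (PF4), a chemokine stored in platelets, or vehicle (Veh) by systemic injection. Each library came from 1 mouse, and all mice had been through behavioural testing. Young Veh had 13 mice aged 3.75 to 5.26 months, Young PF4 12 mice aged 4.08 to 5.03 months, Old Veh 12 mice aged 17.47 to 19.97 months and Old PF4 10 mice aged 17.4 to 20.23 months. The design asks how the genes differ with age, with PF4 at each age, and whether the PF4 effect differs between ages. No transgene or deletion was used, and all 4 groups share sex and strain.

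Most mammalian genes are read out through splicing, in which introns are cut from the primary transcript by the spliceosome. The Snrp genes encode the Sm proteins and other subunits of its small nuclear ribonucleoproteins, and the Sf3a and Sf3b subunits hold the U2 particle on the branch point of the intron. SR proteins (Srsf) and heterogeneous nuclear ribonucleoproteins (Hnrnp) bind the transcript and favour or block the use of nearby exons, often against each other. The Rbfox proteins are regulators of neuronal exons, and the Rbm symbols group proteins with an RNA recognition motif whose roles range from splicing to RNA editing and decay.

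Counts per library ranged from 2242879 to 21112908, with a median of 10374007. The lowest 8 libraries held 2242879 to 4963272 counts, and 4 of these were Old Veh, 1 Young Veh, 2 Young PF4 and 1 Old PF4. Old and young mice have separate ranges of library numbers in the labels (1 to 23 and 24 to 48), so age and library number cannot be told apart. The same holds for treatment in old mice, with numbers 1 to 12 in Old Veh and 13 to 23 in Old PF4, while the numbers of Young Veh and Young PF4 overlap. The summed level of 10 choroid plexus markers was 12.0 to 4259 counts per 1000000 counts (CPM) in Young Veh, with a median of 1943, 94.0 to 3448 with a median of 2380 in Young PF4, 15.1 to 4259 with a median of 47.1 in Old Veh, and 25.9 to 3280 with a median of 65.9 in Old PF4. None of the 10 was at 0 in every library of any group. A score, the mean log2 CPM of these markers, left its widest gap between 23 libraries poor in choroid plexus (up to 3.35) and 24 rich in it (from 4.17). The 9 markers of hippocampal excitatory neurons summed to 866 to 1159 CPM in every library, and the 5 of neurons in general to 4959 to 7075 CPM.

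Another 3 libraries, Young Veh replicate 4, Old PF4 replicate 8 and Young PF4 replicate 4, had the lowest values of an index that sets genes with long transcripts against genes with short ones (−0.348, −0.228 and −0.163, with −0.0836 to 0.178 in the other 44 libraries). Across the 92 genes the median distance of a library from the median library was 0.159 to 0.253 on the log2 scale in these 3, and 0.0602 to 0.171 in the other 44, the highest of these being Old Veh replicate 12, above Young PF4 replicate 4. Snrpn was at 1487 to 2150 CPM in the 3 libraries and at 984 to 1654 CPM in the rest. Srsf2 was at 286 to 436 CPM in the 3 and at 196 to 278 CPM in the rest, with no overlap. Srsf1 went the other way, at 151 to 174 CPM in the 3, near the lower end of 148 to 245 CPM in the rest. The part of transcript length in these levels was not tested, and results are given below without these libraries where a call changed.

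Levels were compared between genes as reads per kilobase of exon and 1000000 counts (RPKM). Snrpn was the most abundant of the 92 at a mean of 549 ± 112 RPKM (SD, n = 47). It encodes SmN, the neuronal counterpart of the core Sm protein SmB, from an imprinted locus (chr7:59982495-60140219, minus strand, GRCm38). Its exons overlap those of Snurf and Gm38393 on the same strand, so the share of reads that belongs to each gene is uncertain. Snrpb, which encodes SmB itself, stood at 37.8 RPKM. The lowest Snrp gene was Snrpc, a subunit of the U1 particle, at 1.64 RPKM.

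Among the SR proteins Srsf2, also known as SC35, led with 82.1 RPKM, followed by Srsf9 with 53.5 and Srsf7 with 49.0, and Srsf10 closed the family at 9.97 RPKM. Per base of the longest transcript Srsf2 still led, but Srsf7 (72.4 RPKM) was above Srsf9 (63.5), and Srsf12 (15.8) was below Srsf10 (18.6). Srsf2 overlaps Mettl23 and Mfsd11 on the opposite strand, which these unstranded libraries cannot separate. Hnrnpab was the highest Hnrnp gene at 56.3 RPKM, followed by Hnrnpk and then Hnrnpu at 45.5 RPKM. This order holds for the summed exon length: per base of the longest transcript, Hnrnpk (109 RPKM), Hnrnpdl (70.8) and Hnrnpu (69.1) were all above Hnrnpab (66.1). Hnrnpa1, usually counted among the most abundant proteins of its family, was listed at 2.11 RPKM and Hnrnpa3 at 2.73 RPKM. Both have near-identical processed copies elsewhere in the genome, and how the authors' counting treated reads that match several places is not given in the sources used here, so both levels are uncertain.

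Sf3b2 at 34.2 RPKM and Sf3b1 at 27.3 RPKM were the highest of the 9 Sf3 genes, which spanned 7.59 to 34.2 RPKM. The 3 Rbfox genes were all abundant. Rbfox1 stood at 55.4 RPKM, Rbfox3, whose protein is the neuronal marker NeuN, at 39.6 RPKM, and Rbfox2 at 21.3 RPKM. The 37 Rbm genes ran from Rbm39 at 34.3 RPKM down to Rbm20, a splicing factor best known from the heart, at 0.444 RPKM and Rbm46 at 0.423 RPKM.

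**Figure D1:**
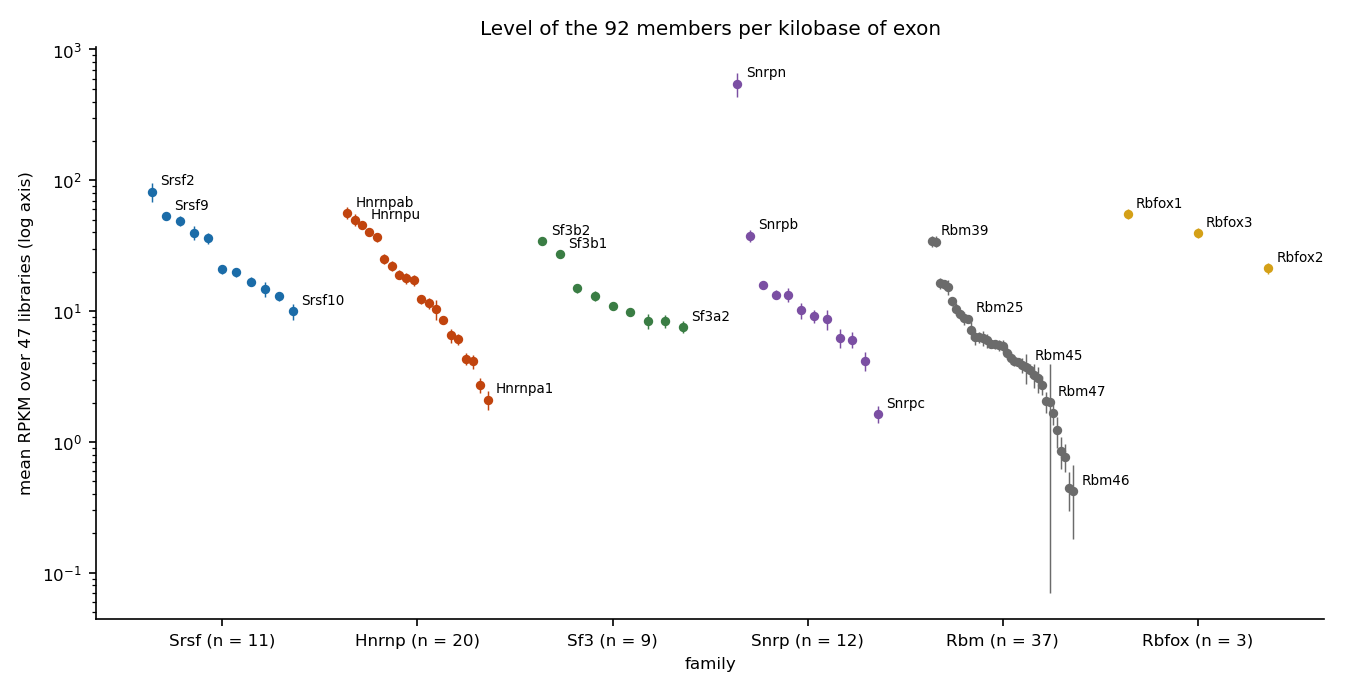
Mean RPKM (log axis) of each of the 92 genes over 47 libraries, by family, with bars of 1 SD and the genes within a family in descending order. Snrpn, at 549 RPKM, lies above all others, and the bar of Rbm47 is the longest for its mean.

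Together the 92 genes took 0.841% ± 0.0382 (SD, n = 13) of all counts in Young Veh, 0.838% ± 0.0237 (n = 12) in Young PF4, 0.843% ± 0.0208 (n = 12) in Old Veh and 0.845% ± 0.0478 (n = 10) in Old PF4. These shares differed by less than the spread within any group. The Srsf share was 0.142% in Young Veh, Young PF4 and Old PF4 and 0.141% in Old Veh. The Hnrnp share ran from 0.247% to 0.249% and the Rbm share from 0.153% to 0.154% of counts. The Snrp share had the widest range of group means, from 0.143% ± 0.016 (SD) in Young PF4 to 0.151% ± 0.0317 in Old PF4, which was also less than the spread within either group.

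The median coefficient of variation of the 92 genes (SD over mean of CPM, 47 libraries) was 10.3%, compared with 15.2% over the 17778 genes tested. The genes compared were not matched for level, and the part of count level in this gap was not tested. Hnrnpu was the steadiest at 4.26%, ranging from 461 to 565 CPM over all libraries. It encodes SAF-A, a nuclear scaffold protein that binds RNA and chromatin. Sf3b1, the largest subunit of the SF3b complex, followed at 4.71%. At the other end stood Rbm47, at 96.5%, and Rbm46, at 57.3%, the latter with at most 31 counts in any library.

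GENCODE lists transcripts subject to nonsense-mediated decay for 9 of the 11 Srsf genes (81.8%) and 10 of the 20 Hnrnp genes. The share was 27.6% of 14366 protein-coding genes tested, 39.1% of the 92 genes, 33.3% of Snrp, 32.4% of Rbm and 11.1% of Sf3 genes, and 0 of 3 for Rbfox. The median number of annotated transcripts was 7 for Srsf, 8 for Hnrnp and 10 for Rbfox genes, against 5 for the protein-coding genes tested. It was 4 for Sf3, 4.5 for Snrp and 5 for Rbm genes, and the shares were not matched for it. Many SR protein genes are known to limit their own output through transcripts subject to decay. The count table gives 1 value per gene, so a shift between the coding and the decay transcript of an SR gene would not show in it.

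The promoters of 2 genes are shown, Rbm45 as the member with the largest called age difference and Hnrnpu as the least variable member. Each is the RefSeq window from 250 bases before to 50 bases after the transcript start, in GRCm38.p6, and lies within 18 bases of the GENCODE start of the gene. The Rbm45 window is chr2:76369734-76370033 on the plus strand, and the Hnrnpu window chr1:178337766-178338065 on the minus strand. Capitals mark matches, on either strand, to CCGGAAG (an ETS-type motif), GGGCGG (the GC box), CCAAT and TATAAA.
Rbm45: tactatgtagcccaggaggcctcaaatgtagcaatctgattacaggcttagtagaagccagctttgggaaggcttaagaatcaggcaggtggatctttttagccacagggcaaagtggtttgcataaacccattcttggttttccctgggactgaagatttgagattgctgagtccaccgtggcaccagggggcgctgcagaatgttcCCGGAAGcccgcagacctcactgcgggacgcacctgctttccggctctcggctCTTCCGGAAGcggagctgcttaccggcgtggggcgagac
Hnrnpu: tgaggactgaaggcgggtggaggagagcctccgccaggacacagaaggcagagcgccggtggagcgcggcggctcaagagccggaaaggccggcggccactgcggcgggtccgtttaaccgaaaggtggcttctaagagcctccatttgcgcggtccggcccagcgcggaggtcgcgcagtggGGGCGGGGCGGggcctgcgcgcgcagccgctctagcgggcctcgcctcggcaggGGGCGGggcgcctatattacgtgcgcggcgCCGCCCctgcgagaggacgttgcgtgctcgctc
The Rbm45 window held 3 matches to CCGGAAG, the last 2 of which share bases on opposite strands, and none to the other motifs. The Hnrnpu window held 4 matches to GGGCGG, 2 of which overlap, and none to the others. RefSeq windows were matched for 78 of the 92 genes, 54 of them within 100 bases of the annotated start of the gene and the others farther off. CCGGAAG was present in 26.9% of these 78 and in 8.86% of all 32851 windows, and GGGCGG in 59.0% and 35.7%. CCAAT was present in 44.9% and 37.4%, and TATAAA in 12.8% and 13.6%. The 78 windows had a median GC content of 60.0%, against 52.7% over all windows.

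Age in vehicle mice called 2 of the 92 genes, Rbm25, which was higher in Old Veh, and Rbm45, which was lower (edgeR quasi-likelihood test, Benjamini-Hochberg adjusted p below 0.05 over 17778 genes). This is 2.17% of the genes, while 2.77% of all genes tested were called (492 genes, 2.16% higher and 0.607% lower). The split over all genes was 384 higher and 108 lower, and 539 higher and 362 lower with the length index described above as a covariate. The share of splicing genes called was thus near that of the background. DESeq2 called the same 2 genes, with 3.83% of the genes it tested. Without adjustment 13 of the 92 genes (14.1%) were below p = 0.05, against 15.2% of all genes. The signs were split, with 44 genes higher and 48 lower in old mice. The median log2 fold change of the 92 was −0.007 and that of all genes −0.013.

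Rbm25, which binds splicing regulators and the U1 particle and is known for its part in the alternative splicing of Bcl-x, was at 139 to 154 CPM in Young Veh, with a median of 145, and at 148 to 169 CPM in Old Veh, with a median of 161. Of the 12 Old Veh libraries, 10 lay above every Young Veh library. The log2 fold change was 0.13 ± 0.031 (SE), a 1.09-fold difference, with an edgeR adjusted p of 0.0151. Its gene lies at chr12:83631236-83683123 on the plus strand of GRCm38. In bulk tissue a change in the number of cells that express a gene and a change in RNA per cell cannot be told apart.

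Rbm45, an RNA-binding protein of the developing nervous system found in the inclusions of motor neuron disease, was at 3.92 to 9.29 CPM in Young Veh, with a median of 7.38. In Old Veh it was at 3.43 to 7.35 CPM, with a median of 5.40. The groups overlapped, with 7 of the 13 Young Veh libraries above every Old Veh library and 2 of the 12 Old Veh libraries below every Young Veh library. The log2 fold change was −0.46 ± 0.12 (SE), or 0.728-fold, with an edgeR adjusted p of 0.0235. The gene had 17 to 155 counts per library. Its call was lost without Old Veh replicate 3 or replicate 6, the highest adjusted p without any 1 library being 0.0575. Rbm25 was called without each of the 47 libraries in turn, with an adjusted p of 0.00358 to 0.0250.

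Both calls were lost, with little change in size, when shallow libraries were left out or the choroid plexus score was taken into account. Without the 8 libraries of lowest depth, the log2 fold change was 0.13 for Rbm25 (edgeR adjusted p = 0.0662) and −0.45 for Rbm45 (0.0883). With the choroid plexus score as a covariate it was 0.11 for Rbm25 (edgeR adjusted p = 0.0684) and −0.43 for Rbm45 (0.0565). Within the 23 libraries poor in choroid plexus it was 0.14 and −0.45, and within the 24 rich in it 0.11 and −0.33, with neither gene called in either set.

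**Figure D2:**
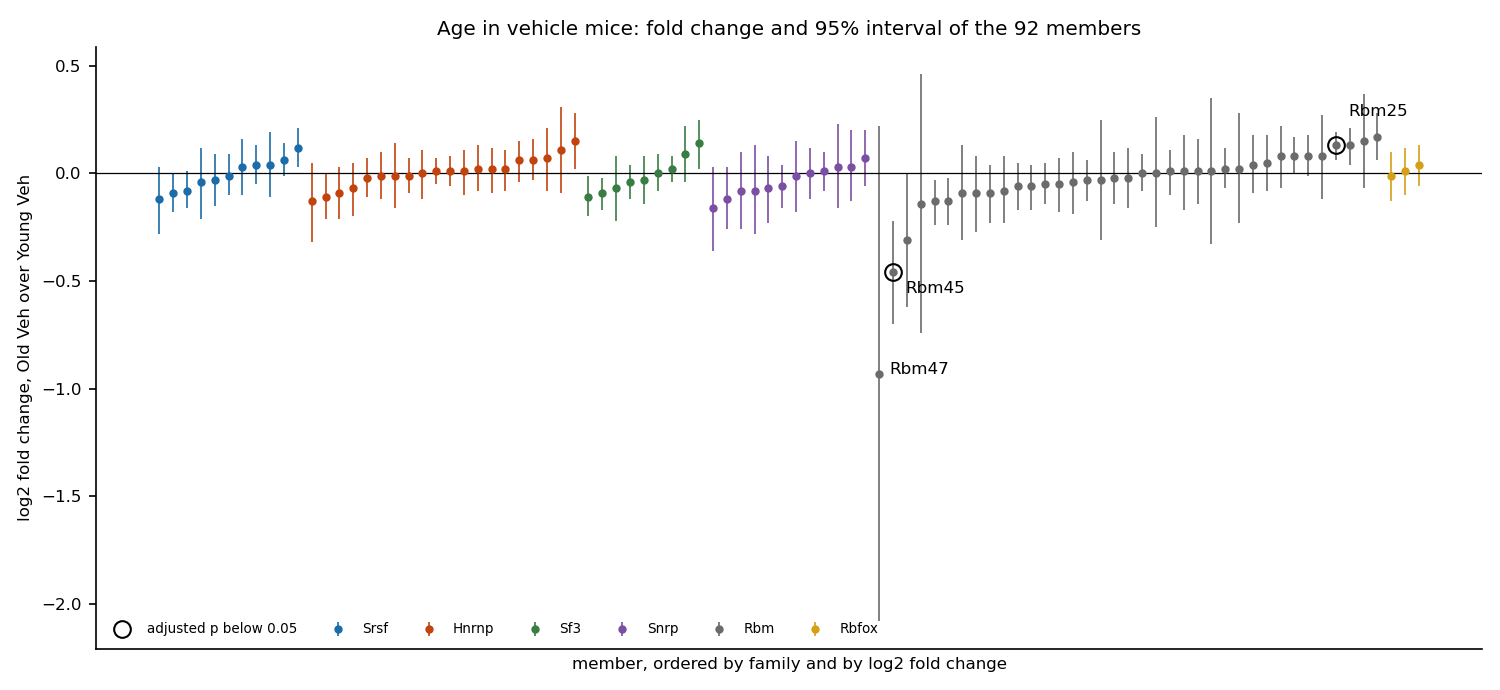
Log2 fold change of Old Veh over Young Veh for each of the 92 genes, with its 95% interval, ordered by family and size. Rings mark Rbm25 (0.13) and Rbm45 (−0.46), the 2 genes with an adjusted p below 0.05, and Rbm47 has the widest interval (−2.08 to 0.22).

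The next genes by p did not pass. Rbm26, a zinc finger protein that works in nuclear RNA decay, was at 67.7 to 96.1 CPM in Young Veh, with a median of 72.1, and at 73.4 to 97.5 CPM in Old Veh, with a median of 83.5 (log2 fold change 0.17 ± 0.055, edgeR adjusted p = 0.0738). A single Old Veh library exceeded every Young Veh library, because Young Veh replicate 4 stood high at 96.1 CPM. Without the 3 libraries of lowest length index, of which this is 1, the value was 0.21 and the gene was called (edgeR adjusted p = 0.00658). It was also called when Young Veh replicate 4 or 7 or Old Veh replicate 9 or 11 was left out alone (edgeR adjusted p of 0.0135 to 0.0422). Its close relative Rbm27 had a log2 fold change of 0.13 ± 0.044 with an edgeR adjusted p of 0.122.

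The other 6 genes of the 10 lowest p-values had edgeR adjusted p-values of 0.135 to 0.245. Srsf11 (0.12), Sf3a2 (0.14) and Hnrnpul2 (0.15) had positive log2 fold changes, and Rbm17 (−0.13), Sf3a1 (−0.09) and Rbm28 (−0.13) negative ones. The estimates of Sf3a1 and Sf3a2, subunits of the same complex, thus had opposite signs, but neither gene was called. Sf3a2 also overlaps Plekhj1 on the opposite strand, which unstranded reads cannot separate. In all, 3 of the 9 Sf3 genes (33.3%) were below an unadjusted p of 0.05 in edgeR, and 2 of 11 Srsf (18.2%) and 7 of 37 Rbm genes (18.9%). The others were 1 of 20 Hnrnp (5.0%), 0 of 12 Snrp and 0 of 3 Rbfox genes. The share was 14.1% over the 92 genes and 15.2% over all genes tested.

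For most of the 92 genes the intervals were narrow, though here and below they were not set against genes matched for level. The 95% interval of the log2 fold change lay wholly within ±0.25 for 70 genes (76.1%) and within ±0.5 for 88 genes (95.7%) in this comparison, compared with 46.7% and 79.9% of all genes tested. For the Rbfox family the age estimates in vehicle mice were 0.04 for Rbfox1 (95% interval −0.06 to 0.13), −0.01 for Rbfox2 (−0.13 to 0.10) and 0.01 for Rbfox3 (−0.10 to 0.12). Rbfox1 was at 199 to 279 CPM in Young Veh, with a median of 239, and at 222 to 301 CPM in Old Veh, with a median of 242. Rbfox3 had medians of 232 and 233 CPM in the same groups.

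The SR proteins spread evenly around 0, from −0.12 for Srsf10 to 0.12 for Srsf11, with 5 positive and 6 negative. For Srsf1, whose protein promotes exon inclusion, the estimate was −0.03 (95% interval −0.15 to 0.09), and for Srsf2 −0.04 (−0.21 to 0.12). Srsf3 had −0.08, Srsf4 −0.09, Srsf5 0.03, Srsf6 0.04, Srsf7 −0.01, Srsf9 0.06 and Srsf12 0.04 as log2 fold changes. Rbm3, a cold-inducible protein tied to synapse maintenance, was at 14.1 to 22.7 CPM in Young Veh, with a median of 18.0, and at 13.2 to 22.4 CPM in Old Veh, with a median of 17.6. Its log2 fold change was −0.08 (95% interval −0.23 to 0.08), and it overlaps its antisense partner Rbm3os, which unstranded reads cannot separate.

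**Figure D3:**
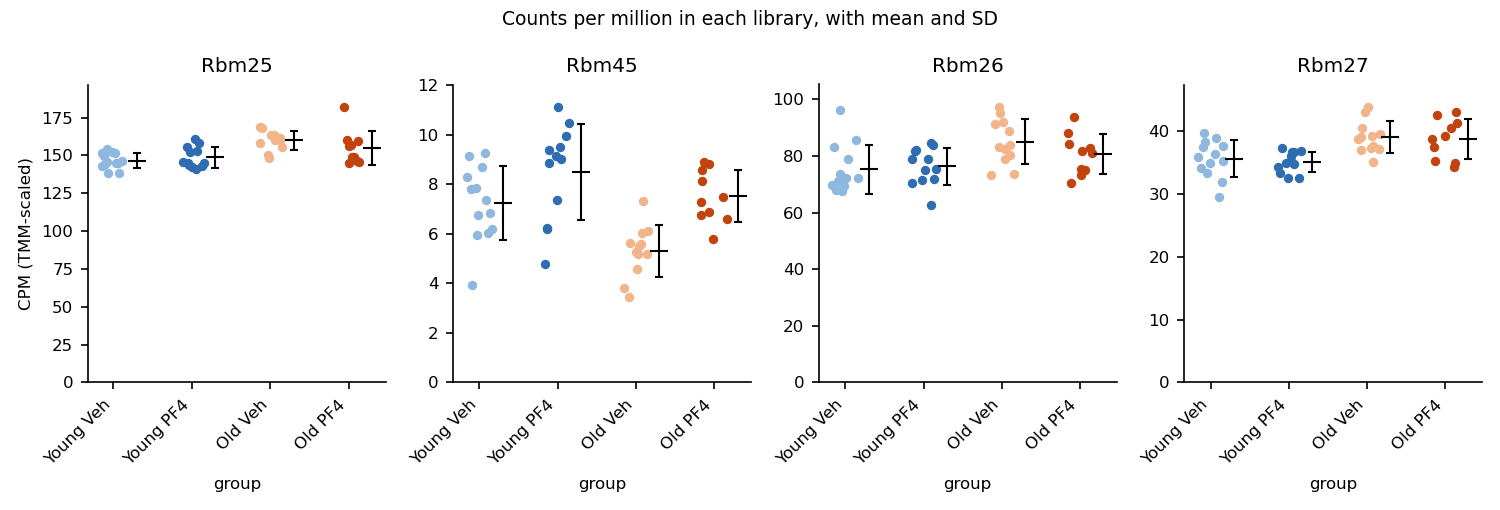
CPM (TMM-scaled, linear axis from 0) of Rbm25, Rbm45, Rbm26 and Rbm27 in each library of the 4 groups, with mean and SD beside the points. Rbm45 has its lowest median, 5.40 CPM, in Old Veh, and 1 Old PF4 library stands above the rest of its group for Rbm25.

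Age in PF4 mice called none of the 92 genes, while 0.332% of all genes were called (59 genes, 0.304% higher and 0.0281% lower). DESeq2 called none of the 92 and 0.461% of the genes it tested. In edgeR 7 of the 92 (7.61%) were below an unadjusted p of 0.05, against 8.27% of all genes. The log2 fold change was 0.14 for Rbm27, 0.28 for Rbm11, a brain-enriched splicing factor, 0.16 for Srsf5 and 0.21 for Rbm15, a cofactor of RNA methylation. It was −0.09 for Srsf3, −0.38 for Rbm20, 0.16 for Rbm43, 0.14 for Rbm7, −0.11 for Rbm10 and 0.09 for Hnrnph3. Without Old PF4 replicate 8 the value was 0.12 for Rbm15 and 0.07 for Rbm7. The lowest edgeR adjusted p was 0.284, for Rbm27. Rbm27 was at 32.6 to 37.3 CPM in Young PF4, with a median of 35.1, and at 34.3 to 43.1 CPM in Old PF4, with a median of 39. In 7 of the 10 Old PF4 libraries it lay above every Young PF4 library.

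Rbm45 had an age estimate of −0.16 in PF4 mice (95% interval −0.41 to 0.09, edgeR adjusted p = 0.801). It was −0.4 within the libraries poor in choroid plexus and 0.05 within those rich in it. Rbm25 had an age estimate of 0.06 in PF4 mice (95% interval −0.01 to 0.13). It was at 141 to 161 CPM in Young PF4, with a median of 146, and at 145 to 182 CPM in Old PF4, with a median of 153. The highest of these was Old PF4 replicate 8, without which the estimate was 0.03. Whether its age difference depended on treatment was tested by the interaction, −0.07 on the log2 scale (95% interval −0.16 to 0.03, edgeR adjusted p = 1.0).

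The vehicle and the PF4 mice give separate estimates of the age difference, since they share no library. Over the 92 genes the estimates had a Pearson r of 0.746 and a Spearman rho of 0.531, and 65 genes (70.7%) had the same sign. Over all 17778 genes r was 0.539, rho 0.425 and the shared sign 64.3%. Without Rbm47 r fell to 0.441 over 91 genes, and rho was 0.515. These are descriptions across genes, which are not independent replicates, and both sets of old mice share the low library numbers and the lower choroid plexus level.

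**Figure D4:**
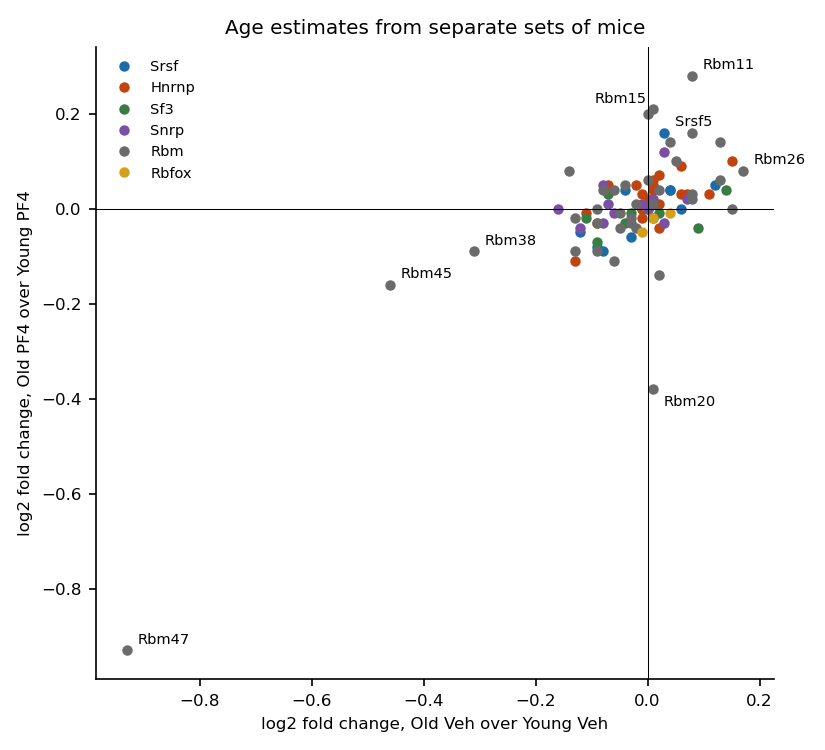
Log2 fold change with age in PF4 mice against that in vehicle mice, 1 point per gene, coloured by family. Rbm47 lies far from the others at −0.93 on both axes, and most genes lie within 0.2 of 0 on both.

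PF4 in old mice called none of the 92 genes by edgeR, and 0.0337% of all genes (6 genes, 0.0112% higher and 0.0225% lower). The nearest was Rbm45. It was at 5.78 to 8.92 CPM in Old PF4, with a median of 7.40, against 3.43 to 7.35 CPM and a median of 5.40 in Old Veh, and 5 of the 10 Old PF4 libraries lay above every Old Veh library. The log2 fold change was 0.52 ± 0.13 (SE), 1.44-fold, with an edgeR adjusted p of 0.152. DESeq2 called it (adjusted p = 0.0483) among 24 genes, or 0.169% of those it tested. This comparison uses the same Old Veh libraries as age in vehicle mice, in which Rbm45 was lower in Old Veh, so the 2 results are not independent. As noted above, library number cannot be told apart from PF4 in old mice.

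In young mice Rbm45 was at 4.78 to 11.1 CPM with PF4, with a median of 9.11, and at 3.92 to 9.29 CPM with vehicle, with a median of 7.38. Its log2 fold change with PF4 was 0.23 (95% interval −0.00 to 0.45, edgeR adjusted p = 1.0), and it was 0.49 within the libraries poor in choroid plexus and 0.05 within those rich in it. The order of its 4 medians was Old Veh, Young Veh, Old PF4 and Young PF4, of which Young Veh and Old PF4 (7.38 and 7.40 CPM) were the closest. The difference between the PF4 effects at the 2 ages was 0.30 (95% interval −0.05 to 0.64), and 0.05 and 0.38 within the poor and the rich libraries.

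Other genes had smaller values with PF4 in old mice. Rbm28, a nucleolar protein, had 0.14, Hnrnpm 0.13, Snrpb2 0.18, Snrpf 0.19, Hnrnpf 0.12, Rbm20 −0.33, Sf3a2 −0.11, Sf3b6 0.08 and Rbm6 −0.08 as log2 fold changes, with edgeR adjusted p-values of 0.719 to 0.890. Without Old PF4 replicate 8 the value was 0.08 for Hnrnpm, 0.05 for Sf3b6 and −0.05 for Rbm6. In all, 3 of the 92 genes (3.26%) were below an unadjusted p of 0.05, against 6.20% of all genes. Of the 12 Snrp genes 11 had positive values, with a median of 0.039 (all genes 0.009, 54.0% positive), and none was below an unadjusted p of 0.05. The length index had a mean of −0.0247 in Old PF4 and 0.0393 in Old Veh. With the index as a covariate 4 of the 12 Snrp genes were positive (median −0.017). Without the 3 libraries of lowest index 5 were (median −0.004), and without the 8 libraries of lowest depth 7 were (median 0.01). The index was made from the same counts, and its short genes include Snrp genes such as Snrpe and Snrpf. The part of transcript length in these signs was therefore not tested. Snrpb2, of the U2 particle, was at 12.6 to 19.8 CPM in Old Veh, with a median of 16.7, and at 15.1 to 25.4 CPM in Old PF4, with a median of 19.3. Without the 3 libraries of lowest length index, which include Old PF4 replicate 8, its log2 fold change was 0.12.

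PF4 in young mice called no gene at all in edgeR or in DESeq2 (0.0% of genes tested). At an unadjusted p of 0.05, edgeR listed 213 of all genes (1.20%) and 0 of the 92. The largest absolute value after Rbm45 was −0.12 for Rbm24. The rest of the 10 lowest p-values belonged to Rbm7 (−0.11), Hnrnpr (−0.08), Sf3b3 (−0.06), Rbm33 (−0.06), Sf3b4 (0.08), Hnrnpa3 (−0.09), Srsf9 (0.05) and Snrpc (0.10), all as log2 fold changes. Without Young Veh replicate 4 the value was −0.07 for Rbm7 and −0.05 for Hnrnpr, and without Young PF4 replicate 4 it was −0.03 for Rbm33. The 95% interval lay within ±0.25 for 81 of the 92 genes (88.0%) and for 58.2% of all genes tested.

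The difference of the PF4 effects between ages also called no gene in edgeR or DESeq2 (0.0% of genes tested), with 707 of all genes (3.98%) and 0 of the 92 below an unadjusted p of 0.05 in edgeR. After Rbm45 came Rbm15 (0.20), Rbm20 (−0.39), Rbm25 (−0.07), Srsf5 (0.13), Rbm28 (0.11), Rbm11 (0.20), Hnrnpf (0.12), Rbm42 (0.11) and Sf3b4 (−0.13) as log2 differences. Without Old PF4 replicate 8 the difference was 0.11 for Rbm15, 0.08 for Srsf5 and 0.07 for Rbm42, and without Young Veh replicate 4 it was 0.08 for Srsf5 and 0.07 for Rbm42. The intervals were wider here, with 52 of the 92 genes (56.5%) and 29.6% of all genes tested within ±0.25. For Rbfox1, Rbfox2 and Rbfox3 the difference was −0.04 (95% interval −0.18 to 0.09), −0.04 (−0.21 to 0.13) and −0.03 (−0.19 to 0.13).

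Rbm47 was the gene whose level depended most on the library. It encodes an RNA-binding cofactor of APOBEC1 in the editing of cytidine to uridine, and is known mainly from epithelia. It was at 0.992 to 5.06 CPM in the 23 libraries poor in choroid plexus, with a median of 2.45, and at 8.47 to 61.9 CPM in the 24 rich in it, with a median of 25.1. The 2 sets did not overlap. Log2 CPM of Rbm47 and the score had a Pearson r of 0.682 and a Spearman rho of 0.611 within the 23 poor libraries, and 0.895 and 0.879 within the 24 rich ones. Rbm47 was singled out after all 92 genes had been set against the score, so these values are a description and carry no test. Leaving out the 2 libraries farthest from the median score, r was 0.537 and 0.821.

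By group Rbm47 was at 1.65 to 61.9 CPM in Young Veh, with a median of 17.2, at 2.30 to 36.1 in Young PF4, with a median of 23.2, at 0.992 to 38.7 in Old Veh, with a median of 2.5, and at 1.57 to 32.2 in Old PF4, with a median of 3.48. All groups overlapped. The log2 fold change with age was −0.93 ± 0.57 (SE) in vehicle mice (edgeR adjusted p = 0.454) and −0.93 ± 0.61 in PF4 mice (edgeR adjusted p = 0.740). Libraries rich in choroid plexus were 8 of 13 in Young Veh, 8 of 12 in Young PF4, 4 of 12 in Old Veh and 4 of 10 in Old PF4.

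**Figure D5:**
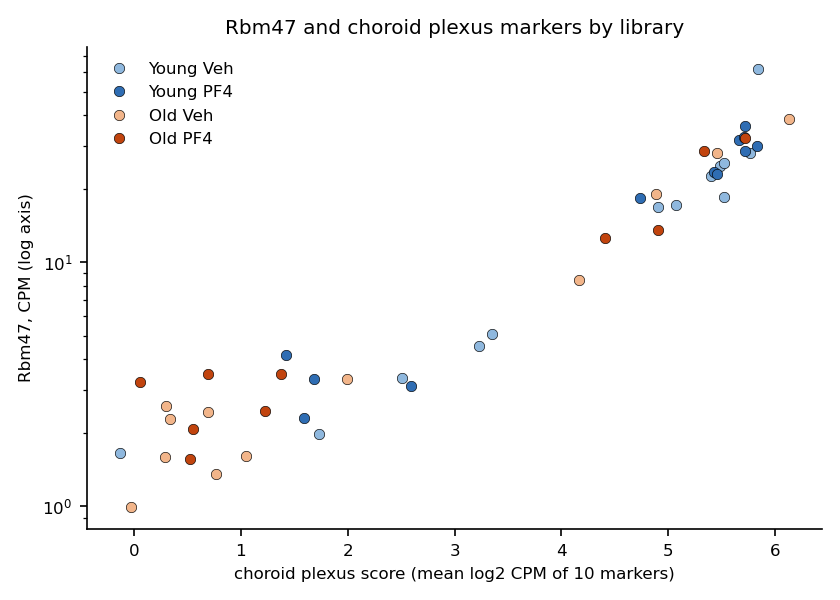
Rbm47 in CPM (log axis) against the choroid plexus score, the mean log2 CPM of 10 markers, in each of the 47 libraries, coloured by group. The 23 libraries with a score up to 3.35 sit at or below 5.06 CPM and the 24 from 4.17 upward at or above 8.47 CPM.

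Lists of other genes in RNA processing give the surroundings of these families. They were chosen with earlier results of these data known, so their shares beside those of all genes are descriptions and carry no test. Among 23 SR-like and speckle proteins, 4 rose in old vehicle mice and none fell (17.4%). Of all genes 2.77% were called, and 2.16% were called higher. The list median was 0.074 as log2 fold change. Luc7l2, which binds the U1 particle, was at 73.8 to 107 CPM in Young Veh, with a median of 97.3, and at 102 to 128 CPM in Old Veh, with a median of 116. Its log2 fold change was 0.27 ± 0.048 (SE), with an edgeR adjusted p of 0.000338. Srrm2 (0.18), which together with Son (0.14) forms the core of nuclear speckles, and Scaf11 (0.14) had edgeR adjusted p-values of 0.0199, 0.0407 and 0.0403. The calls of Srrm2, Son and Scaf11 were lost without the 8 libraries of lowest depth, at adjusted p-values of 0.0660, 0.124 and 0.0695. Leaving out 1 library ended the call of Srrm2 without Old Veh replicate 1 (edgeR adjusted p = 0.0587), of Son without Young Veh replicates 2 and 5 or Old Veh replicates 1, 3, 6, 7, 8, 10 and 12 (up to 0.0677), and of Scaf11 without Young Veh replicates 2, 4, 5, 6, 10, 11 and 12 or Old Veh replicates 3, 6, 7, 8 and 12 (up to 0.0751). Luc7l2 was called in all 47 such fits. With the choroid plexus score as a covariate Luc7l2 (0.26, edgeR adjusted p = 0.00151) and Scaf11 (0.16, 0.0342) were called, and Srrm2 (0.17, 0.0611) and Son (0.14, 0.0667) were not. None of the 4 was called within the poor or the rich libraries, where Luc7l2 had 0.21 and 0.30, Srrm2 0.12 and 0.20, Son 0.16 and 0.14, and Scaf11 0.17 and 0.14.

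Of 54 spliceosome core genes tested, Ddx46 rose and Aqr fell with age in vehicle mice (3.70% called, near the 2.77% of all genes). Ddx46, the helicase that readies the U2 particle, was at 52.5 to 64.6 CPM in Young Veh, with a median of 57.9, and at 59.0 to 70.3 CPM in Old Veh, with a median of 65.2 (log2 fold change 0.16 ± 0.037, edgeR adjusted p = 0.0108). Aqr, an intron-binding helicase, had medians of 42.8 and 37.9 CPM (−0.17 ± 0.044, edgeR adjusted p = 0.0235). Both calls were lost without the 8 libraries of lowest depth, at adjusted p-values of 0.0543 and 0.0505. That of Aqr was also lost without Young Veh replicate 2 or Old Veh replicate 1, 7 or 12 (edgeR adjusted p up to 0.0547). With the choroid plexus score as a covariate both were called (edgeR adjusted p = 0.0246 and 0.0338). Neither was within the poor or the rich libraries, with 0.11 and 0.22 for Ddx46 and −0.23 and −0.08 for Aqr.

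None of 27 neuronal splicing regulators, such as the Nova, Ptbp, Celf and Elavl genes, was called, while 23 had positive values, against 45.3% of all genes, and the median was 0.066. With the choroid plexus score as a covariate 17 were positive. None of 8 SR protein kinases (median −0.065) and none of 11 FET, TDP-43 and paraspeckle genes (median 0.013) was called. At an unadjusted p below 0.05 in edgeR these lists held 6 (22.2%), 1 (12.5%) and 1 (9.09%) genes, against 15.2% of all genes. In the other 4 comparisons edgeR called 0 genes of any of these 5 lists.

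Markers of other cells are given beside these results, and some sets differed with age more than others. The 10 choroid plexus markers were all lower in old mice, with median log2 fold changes of −0.917 in vehicle and −1.05 in PF4 mice, and none was called. All 6 microglia markers were higher in old mice of both treatments, with medians of 0.159 in vehicle and 0.255 in PF4 mice. In vehicle mice 1 of the 6 was called, C1qa (0.28, edgeR adjusted p = 0.0262), and 4 were below an unadjusted p of 0.05. In PF4 mice 2 were called, C1qa among them (0.42, edgeR adjusted p = 0.00255), and 6 were below it. Their summed level was 341 to 418 CPM in Young Veh, 366 to 499 in Old Veh, 347 to 429 in Young PF4 and 393 to 534 in Old PF4. The 5 astrocyte markers were split, with 2 positive and 3 negative in vehicle mice (median −0.013) and 3 positive and 2 negative in PF4 mice (median 0.04). Of these, Aldh1l1 was called lower in vehicle mice (−0.19, edgeR adjusted p = 0.0465) and Gfap higher in PF4 mice (0.49, edgeR adjusted p = 0.00179), while Gfap had 0.27 in vehicle mice (edgeR adjusted p = 0.0568). The 6 oligodendrocyte markers had median log2 fold changes of 0.086 in vehicle mice, where 5 were positive, and 0.23 in PF4 mice, where 6 were positive. None was called in edgeR, with 1 and 5 below an unadjusted p of 0.05. Of the 9 markers of hippocampal excitatory neurons 7 were negative in vehicle mice and 8 in PF4 mice, with a median of −0.062 in both. None was called in edgeR, and 2 were below an unadjusted p of 0.05 in each comparison. The markers of neurons in general had medians of 0.022 in vehicle and −0.018 in PF4 mice, and those of endothelium 0.015 and −0.093. Of the red blood cell markers 2 were tested, with medians of 0.474 and 0.017. No marker of these sets was called with age in edgeR. The part of cell composition in the results for Rbm25, Rbm45 and the speckle genes was not tested beyond the fits with the choroid plexus score.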

How the data were processed

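RNA was extracted with RNeasy, made into cDNA by Smart-Seq2 and into unstranded libraries with Nextera XT. Per the labels, reads were trimmed with Trim Galore 0.3.7 and aligned with STAR 2.5.3a to GRCm38. The counting tool is not given in the sources used here. The deposited values are raw read counts per gene, which the authors tested with DESeq2. Here the counts were fitted with edgeR 4.0.16 in R 4.3.3 (4 group means, TMM scaling, filterByExpr, quasi-likelihood test, Benjamini-Hochberg adjustment over 17778 genes, threshold 0.05), with DESeq2 1.42.0 as an alternative, and fold changes are of fitted means. CPM used TMM-scaled library sizes, and RPKM the union of GENCODE vM21 exons. The scripts were tested on simulated data. Libraries of the same group differed by more than sampling noise. Named genes were those called, or the 10 of lowest p in each comparison, all Rbfox and Srsf genes, the highest of each family, the most and least variable, and Rbm3. Other genes named, such as Snrpb and Hnrnpa1, were chosen after their values were seen. The members and lists were chosen with earlier results of these data known. Replicate numbers did not pair the mice.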

Additional observations from a re-analysis of the deposited data

Results flagged for a closer look

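Old PF4, with 10 libraries, was the only group of 10 or fewer libraries, in which single values standing apart were looked for. Of the 92 genes, 34, those named among the 10 lowest p-values of a comparison, were looked at. In 6 of them the highest or lowest library was farther from its neighbour than Dixon's 95% critical value (gap over range) allows. Chance flags about 1 in 20 such groups. In 5 of the 6 the library was Old PF4 replicate 8, 1 of the 3 libraries of lowest length index. It was highest for Rbm25 (182 CPM, next 160; ratio 0.566), Rbm7 (107, next 84.0; ratio 0.479), Hnrnpm (119, next 100; ratio 0.476) and Hnrnpr (181, next 146; ratio 0.4662), and lowest for Rbm6 (45.2, next 55.4; ratio 0.547). Hnrnph3 was lowest in Old PF4 replicate 6 (32.9 CPM, next 37.4; ratio 0.467). No gene was called for a difference of the PF4 effects between ages in edgeR.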

How the results depend on the processing

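The number of genes called for age in vehicle mice was 2, and became 0 with the choroid plexus score as a covariate, without the 8 libraries of lowest depth, and within the libraries poor or rich in choroid plexus (these 2 splits, and leaving out the 3 libraries of lowest length index, were chosen after seeing the data), and ranged from 1 to 3 when each library was left out. For PF4 in old mice DESeq2 called 1 of the 92 (0 in edgeR). Pearson r between the 2 age estimates was 0.746, and 0.629 with the length index as a covariate, 0.486 with the choroid plexus score, 0.594 and 0.386 in poor and rich libraries, 0.572 without the 3 libraries of lowest length index and 0.441 without Rbm47. With the longest transcript as the length, RPKM was 128 for Srsf2, 66.1 for Hnrnpab (then below Hnrnpk, Hnrnpdl and Hnrnpu), 72.4 for Sf3b2, 84.7 for Rbm39 and 79.6 for Rbfox1. Within poor libraries the sign turned for Rbm20 (0.15) and Hnrnph3 (−0.03) with age in PF4 mice and for Sf3b3 (0.02) and Rbm33 (0.05) with PF4 in young mice, and within rich libraries for the difference of the PF4 effects of Hnrnpf (−0.03) and Sf3b4 (0.01). The sign also turned within rich libraries for Rbm45 (0.05) with age in PF4 mice. None of these was called, and the cause was not tested. With a replicate block 2 of the 92 were called in vehicle mice and 0 elsewhere, and Son lost its call (adjusted p = 0.0604). Son and Scaf11 also lost it without a count filter (0.0750 and 0.0645), Scaf11 and Aqr with the compared groups alone (0.0675 and 0.0620) and Scaf11 with the length index (0.0507). Of 56 fold changes, 23 and 29 moved by over 1.5 times within poor and rich libraries, 8 with the length index, 9 without the 3 libraries, 11 when a library was left out, and 1 each with the choroid plexus score and without the 8 libraries. Over 66 same-numbered pairs the median correlation of deviations was −0.00629, and 21 exceeded 0.1.

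Over all genes, age in vehicle mice called 492, against 901 with the length index, 888 without the 3 libraries (621 higher and 267 lower), 176 without the 8 libraries and 42 and 43 in poor and rich libraries. Age in PF4 mice called 59, against 90 with DESeq2 and with the block, 98 with the length index, 21 with the compared groups alone, and 9 and 2 in poor and rich libraries. PF4 in old mice called 6, against 24 with DESeq2, 10 with the choroid plexus score or the block, and 0 with the length index, the compared groups alone, without the 8 libraries or in either split. The difference called 0, and 1 without a count filter. Fewer libraries enter the splits. Low counts limit Rbm46, Rbm20, Rbm38 and Rbm3os most.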
